A study of Mus musculus with 4 samples.

Results

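The chloride intracellular channel (Clic) family was followed through 5 mouse genes, Clic1, Clic3, Clic4, Clic5 and Clic6, on 4 Affymetrix expression arrays. The members were taken by name: every probe set that the platform annotation assigns to a single gene symbol equal to a member was used. This gave 11 of the 45101 probe sets in the table and 5 of 18193 genes. Where a gene had several probe sets, the one to stand for it was chosen by its level, as the brightest on average across the 4 arrays. The family was also proposed with the large difference of Clic6 already known, and the values of Clic6 are therefore given as a description with no test. All members were chosen with earlier results of these data known, so counts over them are no independent test of the family.

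The arrays held 2 day 3 samples, epiblast-like tissue grown by the aggregation method SFEBq, and 2 samples of embryonic stem (ES) cells at day 0, the starting point of that culture. In SFEBq, dissociated ES cells re-aggregate quickly and float in serum-free medium. The labels gave no strain, genotype or line name and did not say whether the duplicates were separate cultures, so p-values here reflect the scatter between duplicates that may be only technical. All day 3 samples were cultured aggregates and no day 0 sample was, so culture and cell state cannot be told apart.

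CLIC proteins are small proteins that exist in a soluble form and in a form associated with membranes. Their soluble fold resembles that of the omega class of glutathione transferases, with a thioredoxin-like domain at the start of the protein. They are known for roles in tube formation, in vesicle and integrin traffic and in the cortical actin of epithelial and sensory cells, and their work as chloride channels in living cells is debated. The mouse genes Clic4, Clic5 and Clic6 each lie beside a Runx gene, which encodes a transcription factor, and next to or near an Rcan gene, which encodes a regulator of calcineurin.

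The stretch around the start of a gene was taken from RefSeq (build GRCm38.p6, 250 bases before to 50 bases after the start) for 4 of the 5 members, all but Clic6. The windows of Clic1, Clic4 and Clic5 are shown because these are the tested members whose calls did not depend on a single array. They lie at chr17:35049993-35050292 on the plus strand (Clic1), chr4:135272711-135273010 on the minus strand (Clic4) and chr17:44188322-44188621 on the plus strand (Clic5). Each is written 5′ to 3′ along its gene, and capitals mark matches to any of 5 motifs that were searched on both strands.
Clic1: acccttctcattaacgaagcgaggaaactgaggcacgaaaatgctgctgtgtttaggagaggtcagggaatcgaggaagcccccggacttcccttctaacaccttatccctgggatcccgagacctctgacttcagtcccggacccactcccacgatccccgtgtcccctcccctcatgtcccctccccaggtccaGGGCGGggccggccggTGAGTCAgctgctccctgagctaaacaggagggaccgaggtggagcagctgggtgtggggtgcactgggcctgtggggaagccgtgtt
Clic4: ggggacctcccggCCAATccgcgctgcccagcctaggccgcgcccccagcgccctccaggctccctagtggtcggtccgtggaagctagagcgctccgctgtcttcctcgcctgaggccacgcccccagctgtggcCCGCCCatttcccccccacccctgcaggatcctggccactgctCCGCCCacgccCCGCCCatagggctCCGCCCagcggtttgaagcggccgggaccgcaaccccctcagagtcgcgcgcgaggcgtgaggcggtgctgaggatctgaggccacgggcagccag
Clic5: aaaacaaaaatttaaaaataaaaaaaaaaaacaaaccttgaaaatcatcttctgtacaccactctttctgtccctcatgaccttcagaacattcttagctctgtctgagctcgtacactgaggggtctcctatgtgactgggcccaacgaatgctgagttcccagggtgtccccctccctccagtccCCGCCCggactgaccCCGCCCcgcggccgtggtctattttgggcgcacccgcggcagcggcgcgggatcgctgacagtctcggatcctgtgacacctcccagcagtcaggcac
The motif GGGCGG, known as the GC box, was found in all 4 member windows, against 35.7% of the 32851 windows in the table. The others were the box CCAAT, the TATA motif searched as TATAAA, an E-box read as CACGTG, and the AP-1 site with the letters TGANTCA. No matches overlapped in the member windows. Clic4 held 4 GC boxes, at -114, -71, -60 and -46 from the start, and a match to CCAAT at -237, which 37.4% of windows hold. Clic5 held GC boxes at -63 and -48. Clic1 held a GC box at -54 and an AP-1 site at -38, a motif in 7.81% of windows. The TATA motif (13.6% of windows) and the E-box (7.15%) were in none of the 4. The Clic4 window was the richest in G and C of the 4, with 73.3% against a median of 52.7% over all windows, and it had 28 CpG dinucleotides against a median of 7. Clic1 had 62.0% and 14 CpG, Clic3 60.7% and 5, and Clic5 54.3% and 16. A match is a description of letters and says nothing about binding.

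The arrays of 1 day were nearly alike across genes, with Pearson's r of 0.998 for the day 3 pair and 0.9975 for the day 0 pair. Arrays of different days gave 0.9617 to 0.9619, and genes are not independent replicates. Marker lists were read beside the labels. They were chosen with earlier results of these data known, so their counts are a description and no independent check of the labels. Of the markers, 11 of 11 measured genes of the formative and primed epiblast were called higher at day 3 and 12 of 12 naive pluripotency genes were called lower. Over all genes 20.9% were called higher and 21.4% lower, and these shares stand beside each marker count here. Among 15 fibroblast markers (possible feeder cells), 4 were called higher and 4 lower, and of 12 early neural plate genes 4 were called higher and 4 lower. The summed linear level of the fibroblast list was 3700 to 3837 at day 3 and 10359 to 11406 at day 0. That sum is weighted to Vim (mean 9.12 at day 3, 12.54 at day 0) and Fn1 (10.43 and 11.78), the brightest of the list at day 0. Acta2 and Tagln were called lower as well, while Thy1, Dcn, Col1a2 and Pdgfra were called higher. The sum therefore does not give a direction for the list as a whole. Genes of visceral endoderm, an extra-embryonic epithelium, were higher in the same arrays, with 16 of 19 called higher and 0 lower. Their summed linear level was 29477 to 32091 at day 3 and 5284 to 5509 at day 0. By the probe set kept for each gene, 0 of the 19 lay below the arrays' first quartile on both arrays of either day. Probe sets not kept for Ttr and Afp did read below it on both day 0 arrays. These marker values stand beside every Clic difference that follows, and their part in it was not tested. In such bulk samples more cells of a type and more RNA per cell cannot be told apart.

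All 5 Clic genes were higher at day 3 than at day 0, by amounts that ran from a small step for Clic3 to a log2 difference of over 6 for Clic6. Leaving out Clic6, both day 3 arrays lay above both day 0 arrays in 4 of 4 member genes, where the same held for 35.3% of all genes, and in 9 of 9 member probe sets, where it held for 30.5% of all probe sets. Values are log2 signals from RMA, a method that makes the arrays' distributions alike, and differences are day 3 minus day 0 with the standard error (SE) of a limma fit over all genes. Of the 4 members tested, all 4 were called higher at a Benjamini-Hochberg adjusted p under 0.05, a call that 20.9% of all genes received, while 42.3% were called in either direction. The median difference of these 4 was 0.95, beside a median of 0.01 over all genes. These 4 genes are few and were chosen with earlier results of these data known.

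**Figure D1:**
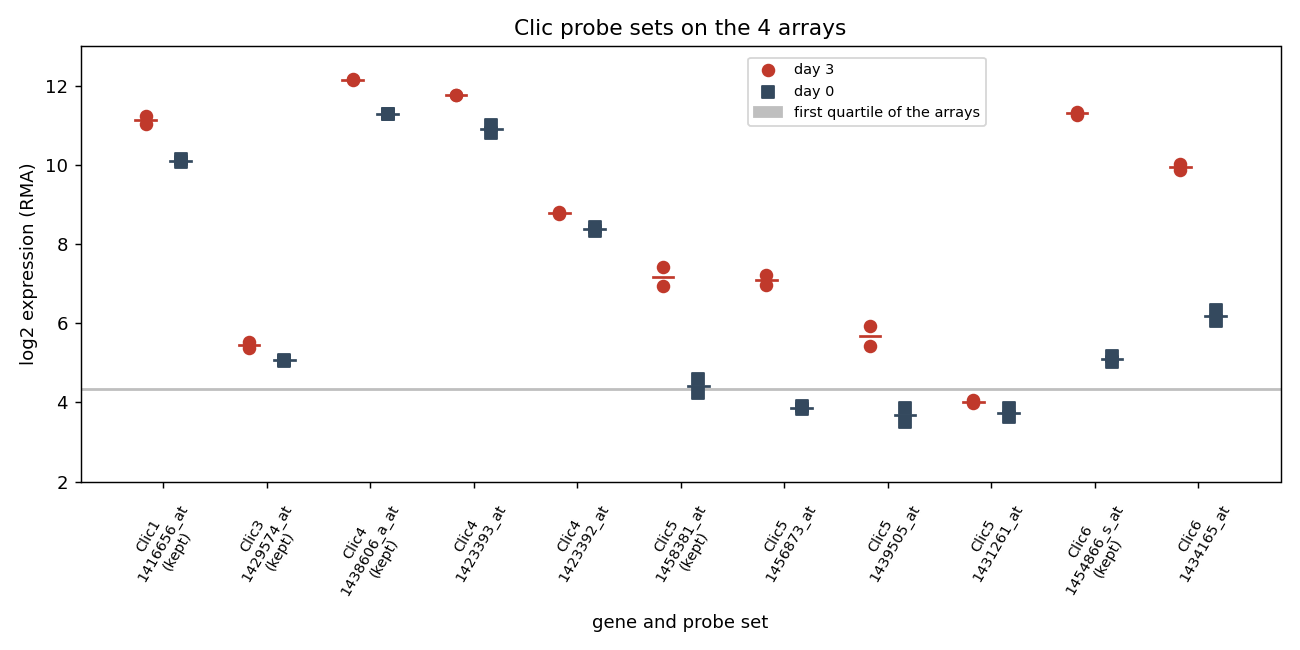
Log2 expression of the 11 Clic probe sets (x axis) on each array, with day 3 as red circles left of day 0 as dark squares (n = 2 each). Short lines are means, the grey band is the first quartile of the arrays (4.30 to 4.33), and "kept" marks the probe set that represents the gene. In every probe set both day 3 points lie above both day 0 points.

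Clic6 encodes the longest member of the family, first described in rabbit stomach as parchorin, with a long extension ahead of the conserved CLIC part and expression known from fluid-secreting epithelia. Its kept probe set, 1454866_s_at, read 11.25 and 11.34 at day 3, against 5.01 and 5.17 at day 0. The day 0 arrays were above the first quartile of the arrays, which ran from 4.30 to 4.33, but below their medians of 5.78 to 5.79, and no detection call separates such a level from background. The difference was 6.21 ± 0.09 (SE), or 74.1-fold, and by their kept probe sets 4 of 18193 genes had a larger one. Probe sets not kept for Ttr (up to 8.97) and Afp (7.30) had larger differences too. The second probe set, 1434165_at, read 9.87 and 10.03 at day 3, against 6.33 and 6.06 at day 0, a difference of 3.76 ± 0.11 or 13.5-fold. Both probe sets of Clic6 therefore stood far apart between days, but the size depended on which of them was read. They were designed from the same accession, and the name of the kept one marks it as matching more than 1 transcript.

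Clic5 had the largest difference among the tested members. In mice the loss of Clic5 causes deafness and loss of balance, since the protein holds the base of the stereocilia of hair cells together with radixin, taperin and myosin VI, and in kidney podocytes it works with ezrin and podocalyxin. The kept probe set, 1458381_at, read 6.94 and 7.41 at day 3, against 4.24 and 4.58 at day 0. The means were 7.18 ± 0.34 at day 3 and 4.41 ± 0.24 at day 0 (SD, n = 2 each), and Clic5 rose by 2.76 ± 0.17 (SE), a 6.78-fold change (limma adjusted p = 4.2e-07). A larger rise was found for 0.79% of genes. Without limma's shared variance estimate, in an unmoderated test, Clic5 was not called (adjusted p = 0.063 over all genes by this variant of the limma fit).

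Of the 4 Clic5 probe sets, 3 were called higher and 1 was not called. Probe set 1456873_at read 6.95 and 7.21 at day 3, against 3.90 and 3.82 at day 0, and rose by 3.22 ± 0.14 (limma adjusted p = 1.2e-07 over all probe sets). Probe set 1439505_at read 5.42 and 5.93 at day 3, against 3.52 and 3.87 at day 0, and rose by 1.99 ± 0.19 (limma adjusted p = 2.8e-05). Probe set 1431261_at read 4.05 and 3.99 at day 3, against 3.62 and 3.85 at day 0, and its difference of 0.28 ± 0.13 was not called (limma adjusted p = 0.14). That probe set stayed below the first quartile on all 4 arrays, where RMA compresses differences. Why it differed from the other Clic5 probe sets was not tested. At day 0 the called probe sets were near or below the first quartile too, so Clic5 had no level clearly above it in the ES cells, and a ratio against such a level is uncertain.

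Clic1, the most widely expressed member, shows glutathione-dependent oxidoreductase activity in the test tube. Its single probe set, 1416656_at, read 11.03 and 11.24 at day 3, against 10.06 and 10.14 at day 0. The groups did not overlap, and Clic1 rose by 1.03 ± 0.08 (SE), a 2.05-fold change on top of a day 0 level far above the first quartile (limma adjusted p = 1.8e-06). In the unmoderated variant of the limma fit Clic1 was not called (adjusted p = 0.065).

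Clic4 is known for its part in the hollowing of endothelial tubes in mice and for moving to the nucleus under stress and transforming growth factor beta. Its kept probe set, 1438606_a_at, read 12.16 and 12.14 at day 3, against 11.27 and 11.28 at day 0, the tightest duplicates of any kept Clic probe set. Clic4 rose by 0.87 ± 0.05 (SE), a 1.83-fold change (limma adjusted p = 3.3e-07). The second probe set, 1423393_at, read 11.76 and 11.77 at day 3, against 10.81 and 11.00 at day 0, and rose by 0.86 ± 0.07 (limma adjusted p = 1.1e-05 over all probe sets). The dimmer probe set 1423392_at read 8.77 and 8.81 at day 3, against 8.32 and 8.42 at day 0, and rose by 0.42 ± 0.09 (limma adjusted p = 0.0041), a call that was lost when day 3 replicate 2 was dropped (0.40, limma adjusted p = 0.059). All 3 Clic4 probe sets were thus called in the same direction, and the rise of the dimmest was the smallest.

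Clic3, whose human product is known as a partner of an atypical mitogen-activated kinase and as a protein that tumour cells secrete, had the smallest difference. Its probe set, 1429574_at, read 5.52 and 5.36 at day 3, against 5.04 and 5.08 at day 0. The groups did not overlap, and the difference was 0.38 ± 0.12 (SE), or 1.30-fold (limma adjusted p = 0.029). This call rested on all 4 arrays. It was lost when any 1 of them was left out, with a difference of 0.30 (limma adjusted p = 0.18) or 0.46 (0.059) when replicate 1 or 2 of day 3 was dropped, and 0.36 (0.081) or 0.40 (0.051) when replicate 1 or 2 of day 0 was dropped. Adjusted over all probe sets the limma p was 0.049, and that call was lost after median centring (0.054), after renewed quantile normalization (0.052) and with the replicate number as a block (0.069).

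**Figure D2:**
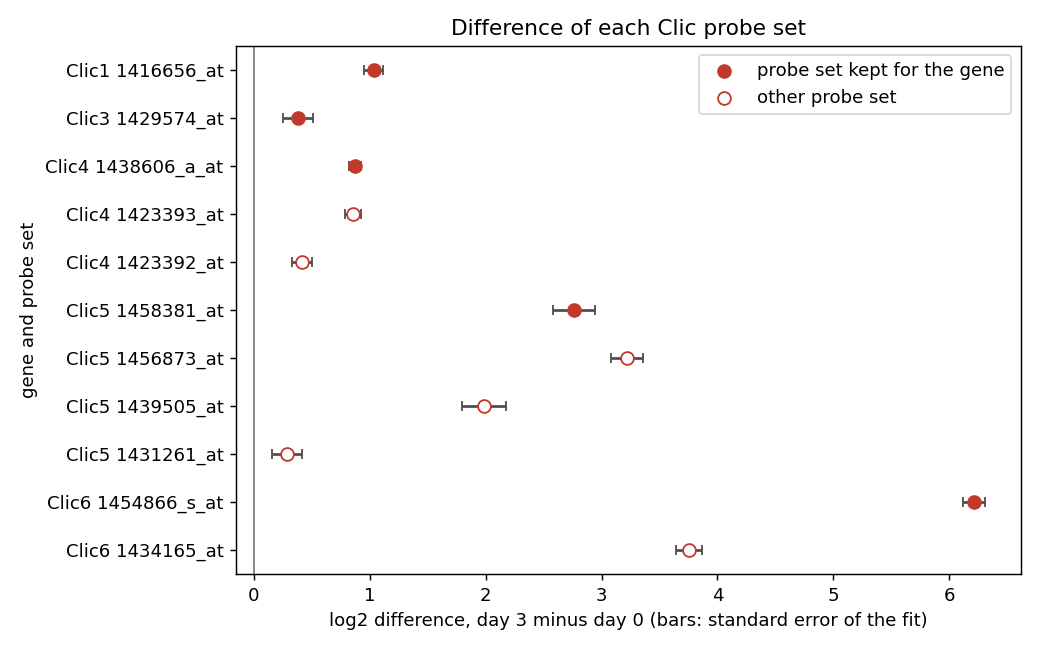
Log2 difference, day 3 minus day 0, of each Clic probe set with the standard error of the fit. Filled points are the probe sets kept for a gene and open points the others. All 11 points lie right of 0, from 0.28 for Clic5 probe set 1431261_at to 6.21 for Clic6 probe set 1454866_s_at.

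Over the probe sets outside Clic6, 8 of 9 were called higher and 0 lower, against 14.2% called higher and 16.7% called lower among all probe sets. By size of the gene difference the order was Clic6, Clic5, Clic1, Clic4 and Clic3. The differences between single arrays of the 2 days ran from 6.09 to 6.33 for Clic6, from 2.35 to 3.17 for Clic5, from 0.89 to 1.18 for Clic1, from 0.86 to 0.89 for Clic4 and from 0.28 to 0.48 for Clic3. Clic1 and Clic4 therefore overlapped and had a gap of 0.16 with a combined SE of 0.09. Every other pair of neighbours in this order was apart, by the kept probe sets only. Other probe sets did not all keep the order. Clic5 probe set 1431261_at (0.28 ± 0.13) lay below Clic3 (0.38), and Clic4 probe set 1423392_at (0.42 ± 0.09) lay close to Clic3. Levels of different probe sets are not comparable on arrays, so no order of abundance among the 5 genes is given.

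**Figure D3:**
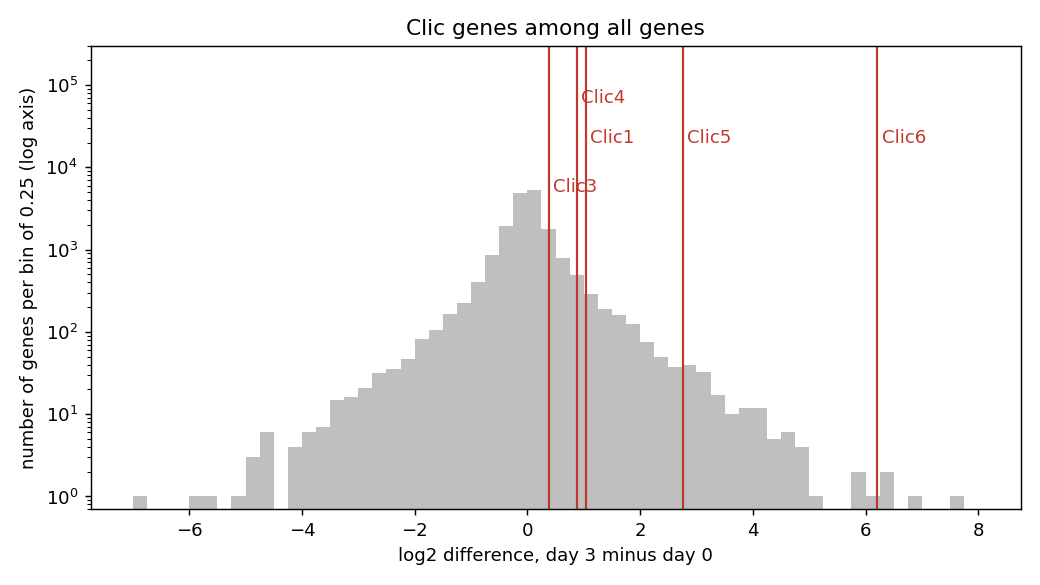
Number of genes by log2 difference, day 3 minus day 0, in bins of 0.25 for all 18193 genes, on a log axis, with a red line at each Clic gene. All 5 lines lie right of 0, Clic3 within the bulk and Clic6 among the last few genes of the upper tail.

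The genes whose pattern over the 4 arrays was most like that of Clic6, by the root mean square difference of log2 values after each gene's mean was subtracted, were Ctsh (0.10), Cubn (0.19), Irs4 (0.20), Slc39a8 (0.21) and Apob (0.30). With 4 arrays in 2 groups this likeness measures little more than an equal difference between days. Ctsh, a lysosomal protease gene, read 11.26 and 11.48 at day 3, against 5.14 and 5.05 at day 0, a difference of 6.28. Cubn, which encodes an endocytic receptor, read 12.70 and 12.94 at day 3, against 6.95 and 6.97 at day 0. Apob and Cubn also stand in the visceral endoderm list.

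Among other genes of chloride transport the differences ran from -0.84 to 1.35. Of 32 measured genes outside the family, 10 rose, 4 fell and 18 were not called, with a median difference of 0.10, against 20.9% higher and 21.4% lower over all genes. The largest called rises were those of Ano4, an anoctamin gene (1.35 ± 0.19, SE), Ttyh3, of the tweety family (1.28 ± 0.10), and Lrrc8c, a subunit gene of volume-regulated anion channels (1.06 ± 0.13). All had limma adjusted p-values of at most 1.7e-04, and both Lrrc8c probe sets were called. Ano4 read 5.29 and 4.70 at day 3, against 3.50 and 3.78 at day 0, so that its day 0 level was below the first quartile.

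Glutathione transferases and glutaredoxins are the enzymes whose fold the soluble CLIC proteins share in part. Of 28 measured genes, 14 rose, 5 fell and 9 were not called, with a median of 0.26, against 20.9% higher and 21.4% lower over all genes. These counts include the microsomal transferase genes Mgst1, Mgst2 and Mgst3, of a separate protein family, so they are not counts of the shared fold alone. Mgst1 rose by 3.87 ± 0.15 (SE), with 9.54 and 9.59 at day 3, against 5.42 and 5.97 at day 0. The theta class genes Gstt2 (2.86 ± 0.10) and Gstt1 (2.17 ± 0.11) followed (limma adjusted p at most 9.0e-08 for the 3). A second Mgst1 probe set, below the first quartile on all arrays, had a difference of 0.20 that was not called. Gsto1, of the omega class that CLIC proteins resemble most, rose by 1.30 ± 0.13, while Gsto2 had a difference of 0.10 and was not called. Members of this family are similar in sequence and can share probes, so the values of single Gstm genes are less certain. The 2 Gsto genes were picked out after their values were seen.

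Genes of ezrin, radixin, moesin and their partners in cortical actin, with which Clic5 and Clic4 are known to work, went both ways. Of 26 measured genes, 11 rose, 3 fell and 12 were not called, with a median of 0.07, against 20.9% and 21.4% over all genes. Myo6, encoding myosin VI, rose by 3.33 ± 0.10 (SE), with 9.39 and 9.54 at day 3, against 6.10 and 6.16 at day 0. Podxl, encoding the apical sialomucin podocalyxin, rose by 3.23 ± 0.07, and Cd44, a hyaluronan receptor gene whose product binds these proteins, by 2.55 ± 0.14 (limma adjusted p at most 1.7e-07 for the 3). All 3 Myo6 and both Podxl probe sets were called higher, and 2 of 4 Cd44 probe sets were. The kept Cd44 probe set read 5.94 and 6.15 at day 3, against 3.64 and 3.36 at day 0, below the first quartile, so the size of its rise is uncertain. Of the named partners of CLIC5 in stereocilia and podocytes, Rdx, encoding radixin, rose by 0.75 ± 0.05 and Tprn, encoding taperin, fell by 0.76 ± 0.09. Ezr, encoding ezrin, had a difference of 0.03 ± 0.06 and was not called (limma adjusted p = 0.68). Rdx, Tprn and Ezr were picked out after their values were seen.

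**Figure D4:**
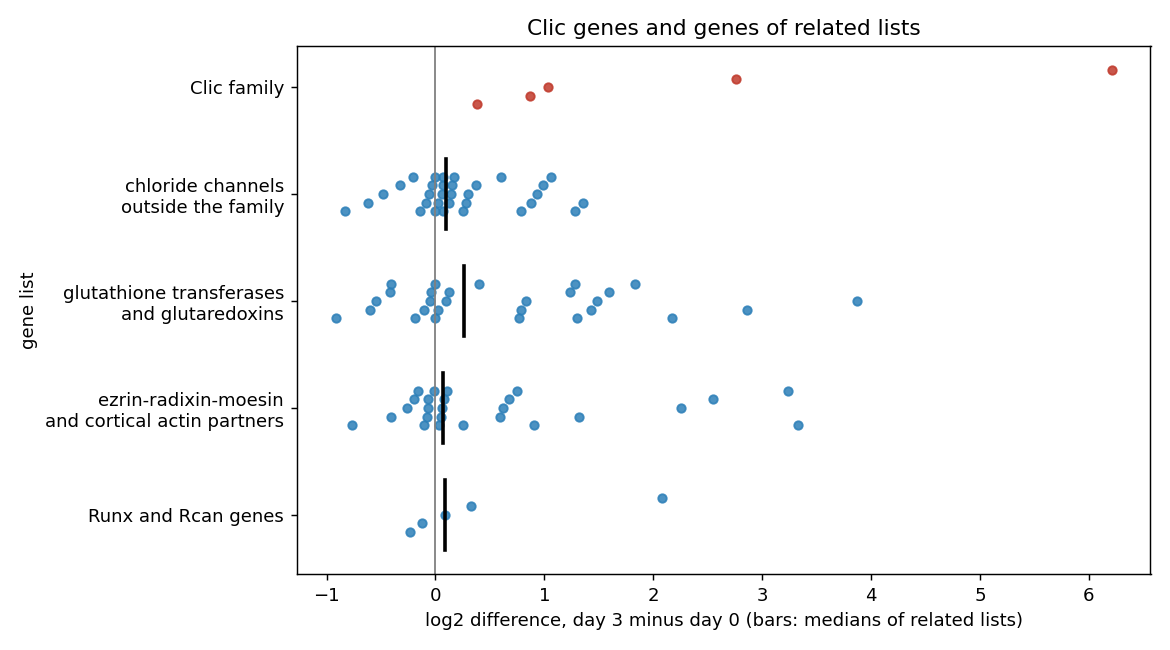
Log2 difference, day 3 minus day 0, of the 5 Clic genes (red) and of the measured genes of 4 related lists (blue), 1 point a gene, with a bar at the median of each related list. The medians of the related lists lie between 0.07 and 0.26, and no chloride channel gene outside the family reaches the 2.76 of Clic5.

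Among the Runx and Rcan genes that lie near Clic4, Clic5 and Clic6 on the chromosomes, 2 of 5 measured genes rose, 0 fell and 3 were not called, against 20.9% higher and 21.4% lower over all genes. The count of rises fell without day 3 replicate 2, which left 1 day 3 array. It was 1 when probe sets of a gene were averaged. It was 0 when those marked as matching more than 1 transcript were dropped. All probe sets of Rcan1 and Rcan2 are so marked, so the genes that rose were then not measured and the 0 is no test of them. In the RefSeq gene table Clic6 (chromosome 16) lies directly between Rcan1 and Runx1. Rcan1 rose by 0.33 ± 0.08 (SE, limma adjusted p = 0.0048), and Runx1 read 6.73 and 6.78 at day 3, against 6.81 and 6.94 at day 0, a difference of -0.12 ± 0.11 that was not called. Rcan2, which 2 protein-coding genes separate from Clic5 on chromosome 17, read 6.55 and 6.60 at day 3, against 4.26 and 4.74 at day 0, and rose by 2.08 ± 0.16 (limma adjusted p = 1.8e-06). Runx2, directly beside Clic5, was not analysed here. Beside Clic4 on chromosome 4, Runx3 had a difference of 0.09 ± 0.13 and Rcan3, 2 protein-coding genes away, one of -0.24 ± 0.09, neither of them called (limma adjusted p = 0.65 and 0.065). The second probe sets of Rcan1 (0.06) and Rcan2 (0.03) were not called.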

How the data were processed

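Mouse samples were assigned to day 3 or day 0 by their titles. The values the authors deposited are on a log2 scale, with a row for each probe set. RMA and R 2.13.0 are named per the submitters' processing notes, with no further settings. RMA equalises distributions and compresses differences of dim probe sets. Array quartiles were close (first quartile 4.30 to 4.33). The number of arrays limits the precision.

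Of 45101 probe sets, 64 were controls. The 34945 others with 1 symbol gave 18193 genes, each with its brightest probe set on average standing for it. The fit across genes used limma 3.58.1 under R 4.3.3 (lmFit, eBayes with an intensity trend, no covariate, 2 residual and about 8.02 prior degrees of freedom), two-sided, with Benjamini-Hochberg adjustment over all 18193 genes, or over all 45037 non-control probe sets. On simulated data for this comparison, over 18193 genes, 68% of 50 genes changed by 0.5 and 100% of 50 genes each changed by 1, 2 and 3 on the log2 scale were recovered, and 15 of 17993 unchanged genes were called. Far fewer genes were changed there than the 7703 called in the data, so those 15 do not give the share of false calls in the data.

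The members and lists were chosen with earlier results of these data known. Related lists held 104 entries, of which 91 were measured. Named were all members and their probe sets, in each related list the 3 called genes with the largest difference, all Runx and Rcan genes, and the 5 genes nearest to Clic6. The labels share replicate numbers, but same-numbered arrays did not deviate together (correlation of deviations -0.017 across genes). Alternatives were no trend, robust variance, an unmoderated test, renewed quantile normalization, median centring, genes above the median level, mean of probe sets, no probe sets whose name marks a match to more than 1 transcript, a replicate block and each array left out. No genome build was named, so the RefSeq gene table served for names and gene neighbours, and promoter windows carry RefSeq's build.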

Additional observations from a re-analysis of the deposited data

How the results depend on the processing

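The rises of Clic1, Clic4 and Clic5 kept their direction in every alternative computed for them and, except in the unmoderated test for Clic1 and Clic5, their call. In that test, which rests on 2 residual degrees of freedom, Clic1 (1.03, adjusted p = 0.065), Clic3 (0.38, adjusted p = 0.12) and Clic5 (2.76, adjusted p = 0.063) were not called, and only 1 of 4 tested members (Clic4, adjusted p = 0.031) and 1 of 9 probe sets were. With 1 array left out Clic3 ranged from 0.30 to 0.46 and was never called. The Clic6 difference was 4.98 from the mean of its probe sets and 3.76 without probe sets marked as matching more than 1 transcript. Clic3 and Clic5 lay below the median level, so the fit over genes above it held 2 tested members, both called, and 4 called probe sets. Of all 9096 genes in that fit, 2771 were called higher and 3226 lower. With the replicate block, which rests on shared numbers only, the 4 tested members stayed called (Clic3 0.38, adjusted p = 0.038), 7 of 9 probe sets were called (that of Clic3 was not, adjusted p = 0.069), and calls over all genes were 3789 higher and 3871 lower. The unmoderated test called 1065 genes higher and 1084 lower, and in the related lists 1 higher and 1 lower chloride transport gene, 7 and 2 glutathione transferase and glutaredoxin genes, 7 higher cortical actin genes and 0 higher Runx and Rcan genes. Among genes above the median level the transferase and glutaredoxin counts were 9 and 3 and the Runx and Rcan counts 1 and 1. Of the Runx and Rcan genes, 1 was called higher from the mean of probe sets, and 1 was called lower after renewed quantile normalization. Fewer of them were called higher without day 3 replicate 2, which left 1 day 3 array. Without probe sets marked as matching more than 1 transcript 0 were called higher, but Rcan1 and Rcan2 then had no probe set left. Over all alternatives the list medians ran from 0.073 to 0.21 (chloride transport), 0.25 to 0.77 (transferases and glutaredoxins) and 0.061 to 0.35 (cortical actin), while that of the Runx and Rcan genes ran from -0.047 without day 0 replicate 1 to 0.22 without day 0 replicate 2. The highest medians of chloride transport (0.21) and of transferases and glutaredoxins (0.77) came from genes above the median level only. That of cortical actin (0.35) came without probe sets marked as matching more than 1 transcript. Both settings leave out genes or exchange their probe sets, so those medians are not of the same lists of values. The cause of the other changes was not tested. The dim day 0 levels of Clic5 limit how well its fold can be known.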

Other observations

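The protein-coding genes beside the Clic genes in the RefSeq gene table did not share 1 direction. Of 20 positions, 2 on each side of each of the 5 members, 18 held a measured gene, and 6 were called higher, 4 lower and 8 not called, against 20.9% higher and 21.4% lower over all genes. This comparison was chosen after the members' values were seen. The largest differences on either side lay beside Clic5, where Enpp5 rose by 2.12 (7.71 and 7.60 at day 3, against 5.50 and 5.56 at day 0) and its neighbour Enpp4 fell by 2.28 (6.51 and 6.77 at day 3, against 8.90 and 8.95 at day 0). Both genes encode members of the ectonucleotide pyrophosphatase and phosphodiesterase family. Beside Clic3, Ptgds, which encodes a prostaglandin D synthase, rose by 1.84 (8.97 and 8.68 at day 3, against 6.87 and 7.11 at day 0), more than Clic3 itself. Beside Clic4, Srrm1, a splicing factor gene, fell by 0.34, and beside Clic6, Setd4 fell by 0.58, while Clic4 and Clic6 were higher. The limma adjusted p-values of these 5 genes were at most 7.5e-04.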
